A study of Mus musculus with 4 samples.

Results

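The genes described here are those of the SR proteins, of their relatives Tra2a and Tra2b, and of the heterogeneous nuclear ribonucleoproteins (hnRNPs). They were chosen by symbol from the array's annotation, as every Srsf gene with a number, both Tra2 genes and every symbol that begins with Hnrnp. The rule gave 29 genes of 12393 named genes, namely 9 Srsf genes, 2 Tra2 genes and 18 hnRNP genes, read by 81 of the 22690 probe sets. Hnrnpa3 and Hnrnpa1l2-ps2 share their probe sets with other symbols and were not named from them, and Srsf7, Srsf12 and Hnrnpa0 were not analysed here. A gene's value below is that of its summary probe set, the brightest on average over all arrays, and 19 of the 29 genes had at least 2 probe sets.

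The study used mouse embryonic fibroblasts, which are cultured cells of embryonic connective tissue, of the strain given as C57/BJ6. The 4 groups were ribosome-bound (polysome) RNA labelled Npm1+/- (heterozygote), polysome RNA labelled Npm1+/+ (wild type), total RNA labelled Npm1+/- and total RNA labelled Npm1+/+. Npm1 encodes nucleophosmin, an abundant nucleolar protein with a role in ribosome assembly, and the design asks whether its loss changes which RNAs ribosomes carry. There was 1 array per group, so each difference is between a pair of libraries, has no replicate check and carries no p-value. Values are log2 intensities, differences are between log2 values, and a gene was counted where it differed by 1.5-fold or more.

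SR proteins bind exonic enhancer sequences through RNA recognition motifs and recruit the splicing machinery through domains rich in arginine and serine. The hnRNPs coat nascent transcripts, often repress nearby splice sites, and many of them move between nucleus and cytoplasm. Genes of both families are known to control their own mRNA through exons or introns whose inclusion sends the transcript to nonsense-mediated decay, the pathway that removes mRNAs with early stop codons. The position of these exons relative to the probe sets was not examined.

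The targeted gene, Npm1, read alike under both genotype labels. One probe set gave 11.96 in the total RNA library labelled heterozygote and 11.91 in the one labelled wild type, and 12.84 and 12.93 in the polysome libraries with the same labels. The other gave 12.03 in heterozygote and 11.96 in wild-type total RNA, and 12.79 in heterozygote and 12.73 in wild-type polysome RNA. The sources used here do not place them inside or outside the deletion, so Npm1 does not check the labels, and the groups below are called by their labels. Array medians lay between 7.47 and 7.59, and the floor for a measured gene was the median of all values, 7.53, which 7179 genes reached on at least 1 array. All 12 fibroblast markers read above the floor on every array and all 7 epithelial markers below it. In bulk RNA, fewer cells that express a gene and less of its RNA per cell cannot be told apart.

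All 29 genes reached the floor, and most differed little between the arrays. The span of a gene over the 4 arrays had a median of 0.34 among the 29 genes, against 0.47 among all 7179 genes. It was under 0.5 in 23 of the 29 (79.3%), against 55.5% of all genes. The 7179 genes had to reach the floor on 1 array only, while the 29 read above it on every array. No set matched in brightness was compared. The span was smallest for Srsf11, which binds U2AF and works at the 3′ splice site, at 0.10. It was largest for Hnrnpu, at 0.97. The brightness of a probe set depends on its sequence, so levels are compared between arrays only. The plot of levels shows each gene on each array.

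**Figure D1:**
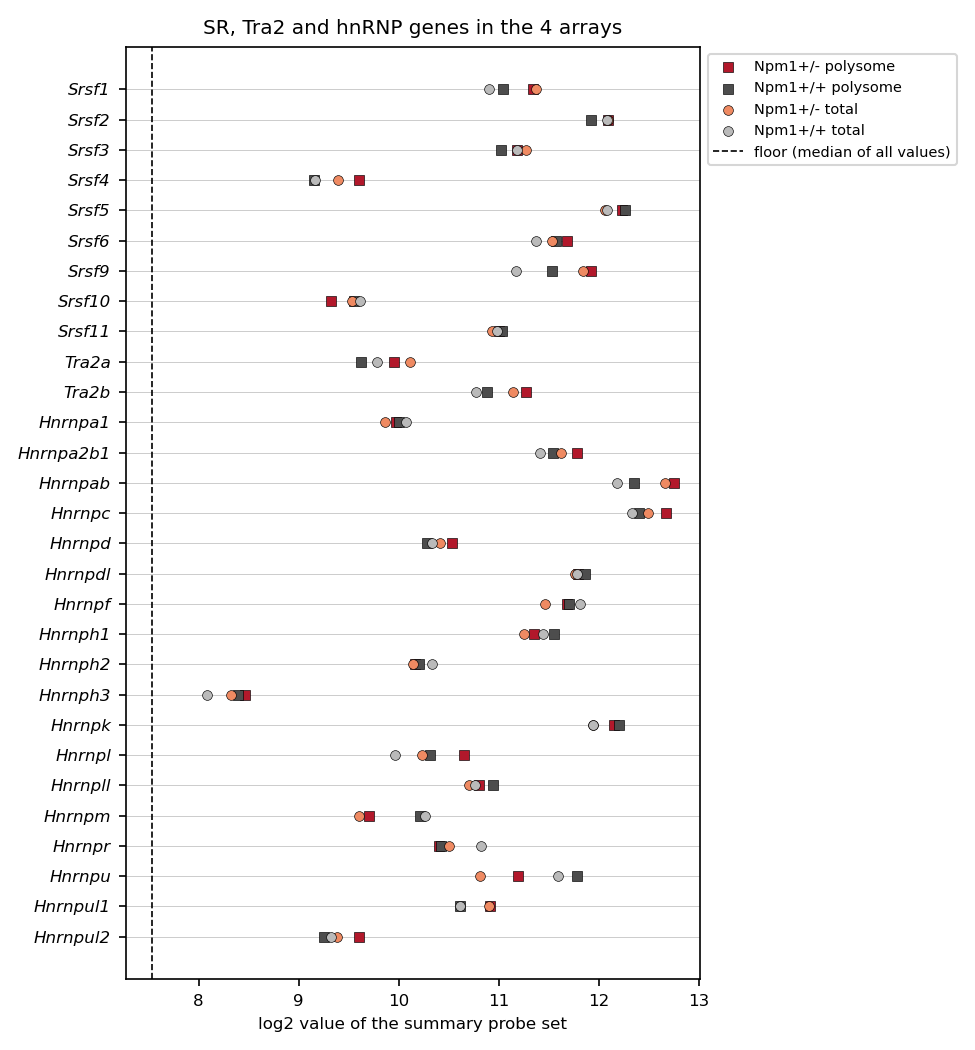
Log2 intensity (horizontal axis) of the 29 genes (rows) on each of the 4 arrays, with polysome and total RNA under the heterozygote and wild-type labels as separate symbols. The symbols of most genes lie close together, and Hnrnpu has the largest span, 0.97.

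Between genotype labels in total RNA, 3 of the 29 genes passed 1.5-fold: Srsf9 was higher in the heterozygote-labelled library, and Hnrnpu and Hnrnpm were lower. Among all 7179 genes, 7.42% were higher and 6.23% lower by that rule, so 1 higher and 2 lower of 29 are about the shares of genes at large. None of the 29 reached 2-fold, a size passed upward by 0.237% and downward by 1.49% of all genes. The 29 differences had a median of 0.07, while the median of all genes was 0.19. Measured from that median gene, 0 of the 29 were higher by 1.5-fold, against 1.37% of all genes, and Hnrnpu and Hnrnpm were the 2 that were lower, against 11.3% of all genes.

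The 3 genes' promoters are shown because their mRNAs had the largest differences between genotype labels in total RNA. Each line gives the 200 bases before the start of the RefSeq gene on GRCm38.p6, 5′ to 3′ on the gene's strand, and capitals mark GGGCGG or its reverse complement CCGCCC, the GC box. The regions are chr1:178337816-178338015 on the minus strand for Hnrnpu, chr17:33685459-33685658 on the minus strand for Hnrnpm and chr5:115326977-115327176 on the plus strand for Srsf9.
Hnrnpu: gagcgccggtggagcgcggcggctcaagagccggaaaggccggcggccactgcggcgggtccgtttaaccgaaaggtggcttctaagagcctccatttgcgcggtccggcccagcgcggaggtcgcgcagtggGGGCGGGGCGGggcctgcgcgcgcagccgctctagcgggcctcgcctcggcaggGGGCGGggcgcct
Hnrnpm: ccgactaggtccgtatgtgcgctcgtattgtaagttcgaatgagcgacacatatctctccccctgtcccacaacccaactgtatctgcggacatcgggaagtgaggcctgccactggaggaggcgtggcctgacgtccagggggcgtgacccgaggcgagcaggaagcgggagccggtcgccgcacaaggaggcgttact
Srsf9: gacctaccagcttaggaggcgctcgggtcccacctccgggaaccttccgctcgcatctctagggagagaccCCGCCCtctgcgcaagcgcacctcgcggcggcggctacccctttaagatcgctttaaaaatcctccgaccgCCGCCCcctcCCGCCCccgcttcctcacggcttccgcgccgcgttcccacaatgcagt
Hnrnpu and Srsf9 each hold 3 GC boxes, of which the first 2 of Hnrnpu overlap by a base, and these letters are not in the window of Hnrnpm. The windows are 76% G and C for Hnrnpu, 62% for Hnrnpm and 67% for Srsf9. Promoter windows were found for 27 of the 29 genes. Of these, 19 (70.4%) held the GC box on either strand, against 31.3% of 27025 windows of the same length. The median G and C content of the 27 was 64%, against 53%. The 27025 windows were not limited to genes at or above the floor, and no share was computed for those genes alone. The CCAAT box (CCAAT) was in 13 of the 27 and in 30.0% of all windows, and the ETS core CCGGAAG in 4 of the 27 and in 6.45%. TATAAA was in 2 of the 27 and in 10.6% of all windows, and the E-box CACGTG in 1 of the 27 and in 5.28%. None of these other motifs was found in the Hnrnpu, Hnrnpm or Srsf9 windows.

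Hnrnpu encodes a large chromatin-associated hnRNP that binds nascent RNA and takes part in nuclear organisation. Its summary probe set read 10.81 in the heterozygote and 11.59 in the wild-type total RNA library, a difference of -0.78 (1.71-fold lower). In polysome RNA it read 11.20 in the heterozygote and 11.78 in the wild-type library, a difference of -0.58 that fell just short of 1.5-fold. The gene has 5 probe sets, 1 of them below the floor, and all 5 were lower in heterozygote-labelled total RNA, by values between -1.05 and -0.23. In polysome RNA 4 of the 5 were lower, and the 5 differences lay between -0.96 and 0.03. The relatives Hnrnpul1 and Hnrnpul2, which share its SAP and SPRY domains, were not lower at their summary probe sets. Hnrnpul1 read 10.90 in heterozygote and 10.62 in wild-type total RNA, and 10.92 in heterozygote and 10.61 in wild-type polysome RNA. Hnrnpul2 read 9.39 and 9.32 in heterozygote and wild-type total RNA, and 9.60 and 9.26 in the same order in polysome RNA. The total RNA difference of Hnrnpul2 ranged from -0.12 to 0.09 over the settings, so its direction there turns with scaling.

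Hnrnpm, an hnRNP that binds GU-rich sequence and regulates alternative exons, was the other gene that was lower by 1.5-fold. It read 9.60 in the heterozygote and 10.27 in the wild-type total RNA library, a difference of -0.66 (1.58-fold lower). In polysome RNA the values were 9.71 in the heterozygote and 10.22 in the wild-type library, a difference of -0.51. Hnrnpm has 1 probe set, so its difference has no check within the gene. For genes with several probe sets, the SD of the difference between probe sets of the same gene was 0.32 in total RNA over 2700 genes, and 0.21 over the 19 genes of these families.

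Srsf9, an SR protein closely related to Srsf1, was higher in the heterozygote-labelled library. It read 11.84 in the heterozygote and 11.18 in the wild-type total RNA library, which is 0.66 or 1.58-fold higher. The polysome libraries read 11.92 under the heterozygote and 11.54 under the wild-type label, a difference of 0.38. It also has 1 probe set. Over the processing settings tried, its difference in total RNA ranged from 0.46 to 0.66 and passed 1.5-fold in part of them.

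The 11 SR and Tra2 genes had a median difference of 0.17 in total RNA, which is -0.02 from the median gene. Over the settings tried this median took both signs, from -0.04 to 0.27, so no direction is given for the family. After Srsf9, the largest difference was that of Srsf1 (SF2/ASF), the founding SR protein, which also acts in export and translation of mRNA: it read 11.37 in the heterozygote and 10.90 in the wild-type total RNA library. Tra2a and Tra2b, which bind GAA-rich exonic enhancers, were both higher in the heterozygote-labelled libraries. Tra2b read 11.14 in heterozygote and 10.77 in wild-type total RNA, and 11.27 in heterozygote and 10.88 in wild-type polysome RNA. Its other probe set differed by 0.22 in total and 0.02 in polysome RNA. Tra2a, which has 1 probe set, read 10.11 in heterozygote and 9.78 in wild-type total RNA. It read 9.95 in heterozygote and 9.62 in wild-type polysome RNA. None of these 3 genes passed 1.5-fold. Srsf4 (SRp75) had the largest SR difference in polysome RNA, 0.46, with 9.61 in the heterozygote and 9.15 in the wild-type library.

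Several SR genes were nearly level between the labels in total RNA at their summary probe sets. Srsf2 (SC35), whose protein marks nuclear speckles, read 12.09 in heterozygote and 12.08 in wild-type total RNA, but 12.09 and 11.92 in the polysome libraries with the same labels, and 2 of its other probe sets differed by 0.20 and 0.30 in total RNA. Srsf5 read 12.06 in heterozygote and 12.09 in wild-type total RNA, and its polysome values were 12.23 in heterozygote and 12.26 in wild type. Srsf11 read 10.93 in heterozygote and 10.99 in wild-type total RNA. Srsf6 differed by 0.17 in total RNA, and Srsf3, a small SR protein that is also an adaptor for mRNA export, by 0.09. Srsf10, which represses splicing when dephosphorylated, had the smallest value of the family at its summary probe set, -0.08 in total RNA and -0.22 in polysome RNA, but its other probe sets read the other way, as given below.

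The 18 hnRNP genes had a median difference of -0.01 in total RNA, which is -0.20 from the median gene, and 5 of the 18 lay above the median gene. This median ranged from -0.20 to 0.04 over the settings, and from -0.26 to -0.03 when taken from the median gene of the same setting. Hnrnpab, an A/B-type protein that binds RNA and single-stranded DNA, had the largest positive difference: it read 12.67 in the heterozygote and 12.19 in the wild-type total RNA library, and 12.76 and 12.35 in the polysome libraries with the same labels. Hnrnpa2b1, the A2/B1 protein, which binds and transports RNAs, read 11.62 in heterozygote and 11.41 in wild-type total RNA. Hnrnpa1, the best-studied repressor of splicing in the family, differed the other way, with 9.86 in heterozygote and 10.08 in wild-type total RNA, and was nearly level in polysome RNA, with 9.98 and 10.01. Of its other probe sets, the one at or above the floor differed by -0.05 in total RNA and the one below it by -0.71. Among the F/H genes, whose proteins bind runs of G, Hnrnpf read 11.47 in heterozygote and 11.81 in wild-type total RNA, Hnrnph1 11.25 and 11.45, and Hnrnph2 10.15 and 10.33. Hnrnph3 differed the other way, with 8.32 in heterozygote and 8.08 in wild-type total RNA.

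The other hnRNP genes covered a range between these. Hnrnpk, a KH-domain protein that binds C-rich sequence, read 11.95 in heterozygote and 11.94 in wild-type total RNA, and 12.16 in heterozygote and 12.20 in wild-type polysome RNA. Hnrnpc, which forms the core tetramers of hnRNP particles and binds U-tracts, read 12.50 in heterozygote and 12.34 in wild-type total RNA. Hnrnpl, which binds CA repeats, was higher in both heterozygote-labelled libraries, with 10.24 against 9.96 in total RNA and 10.66 against 10.31 in polysome RNA, and its paralog Hnrnpll read 10.70 in heterozygote and 10.76 in wild-type total RNA, with the other sign, 0.17, at its second probe set. Hnrnpd (AUF1), a regulator of AU-rich mRNA decay, read 10.41 in heterozygote and 10.33 in wild-type total RNA, and its relative Hnrnpdl 11.76 and 11.78. Hnrnpr, a relative of Syncrip, read 10.50 in heterozygote and 10.83 in wild-type total RNA, but 10.40 and 10.42 in the polysome libraries with the same labels. Its other probe sets differed by 0.01 and -0.07 in total RNA, and its difference there took values from -0.55 to 0.01 over the settings. In all, the total RNA difference took both signs over the settings for 12 of the 29 genes, Hnrnpa2b1, Hnrnpc, Hnrnpd, Hnrnpk, Hnrnpll, Hnrnpr, Hnrnpul2, Srsf2, Srsf3, Srsf6, Srsf10 and Srsf11, so their directions are not settled. In polysome RNA this held for 5, Hnrnph3, Hnrnpll, Srsf6, Srsf10 and Srsf11. The plot of genotype differences orders all 29 genes.

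**Figure D2:**
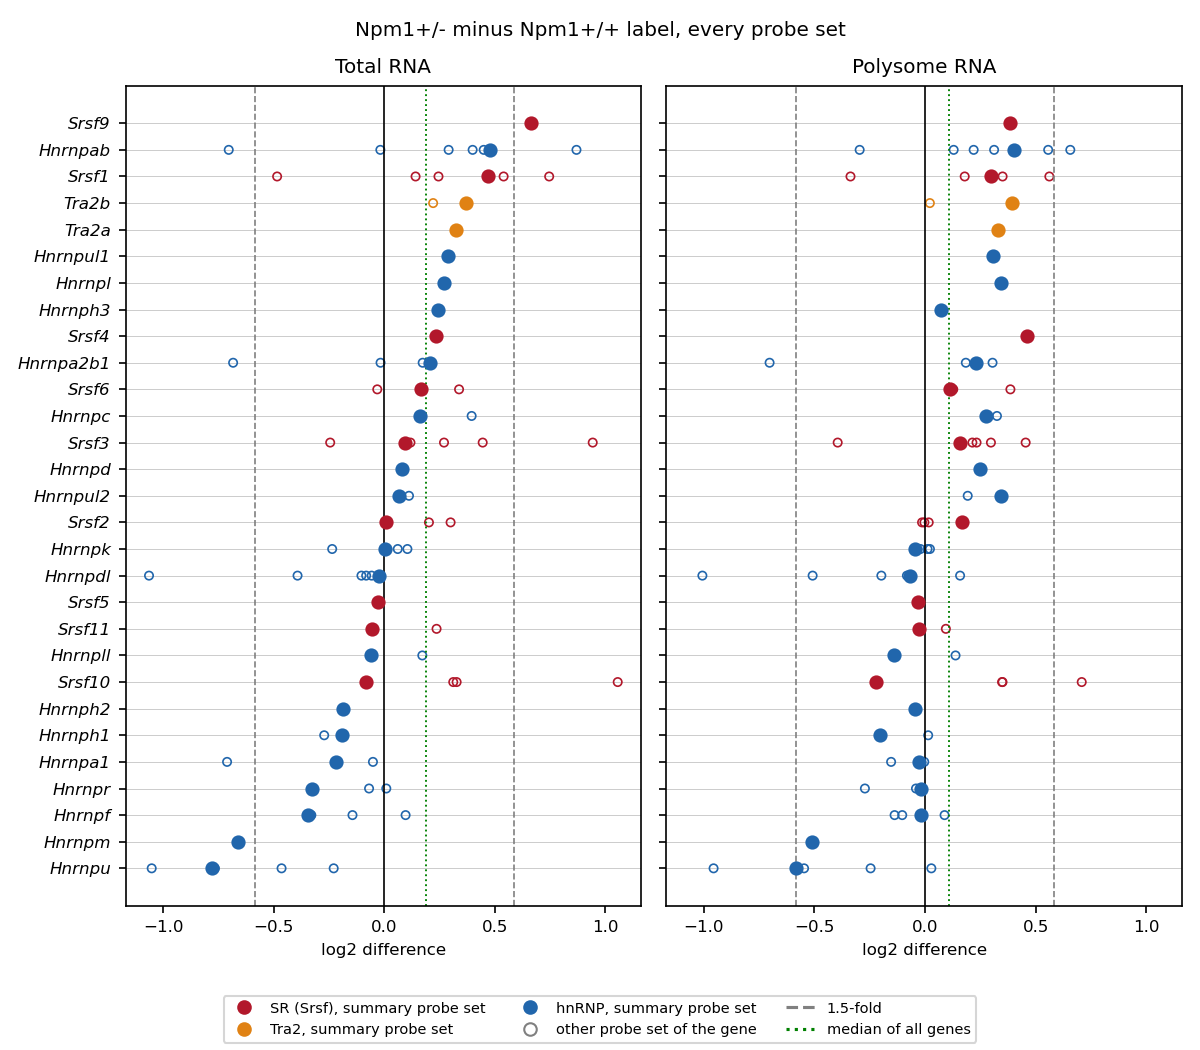
Difference in log2 intensity, heterozygote minus wild-type label (horizontal axis), for the 29 genes (rows) in polysome and total RNA, with summary probe sets drawn apart from the other probe sets and lines for the median gene and the 1.5-fold limits. Srsf9 lies at 0.66 at one end in total RNA and Hnrnpu at -0.78 at the other.

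In polysome RNA, 0 of the 29 genes passed 1.5-fold in either direction, against 2.08% of all genes higher and 5.86% lower. None passed 2-fold, against 0.0836% of all genes higher and 1.17% lower. The median of the 29 was 0.11, the same as the median of all genes, 0.11. Measured from the median gene, 0 of the 29 were higher by 1.5-fold, against 0.85% of all genes, and 2 of the 29, again Hnrnpu and Hnrnpm, were lower, against 8.29%. The SR and Tra2 genes had a median of 0.17 and the hnRNP genes of -0.02, which are 0.06 and -0.12 from the median gene. Over the settings the SR and Tra2 median ranged from 0.04 to 0.21. The hnRNP median took both signs, from -0.15 to 0.04, and ranged from -0.17 to -0.04 when taken from the median gene of the same setting.

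Total and polysome RNA were read on separate arrays, and the genotype-label differences of these genes ran alike in both. Over the 29 genes, the difference had the same sign in total and polysome RNA for 28, with a Pearson correlation across genes of 0.885 and a Spearman correlation of 0.843. Over all 7179 genes the sign was the same for 6258. The same correlations were 0.907 and 0.876 over all genes, so the likeness is not particular to these families. Genes are not independent replicates, and the cultures behind the total and polysome libraries of a label may be shared, which the labels do not say. The scatter of both differences shows Hnrnpu and Hnrnpm together at the low end.

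**Figure D3:**
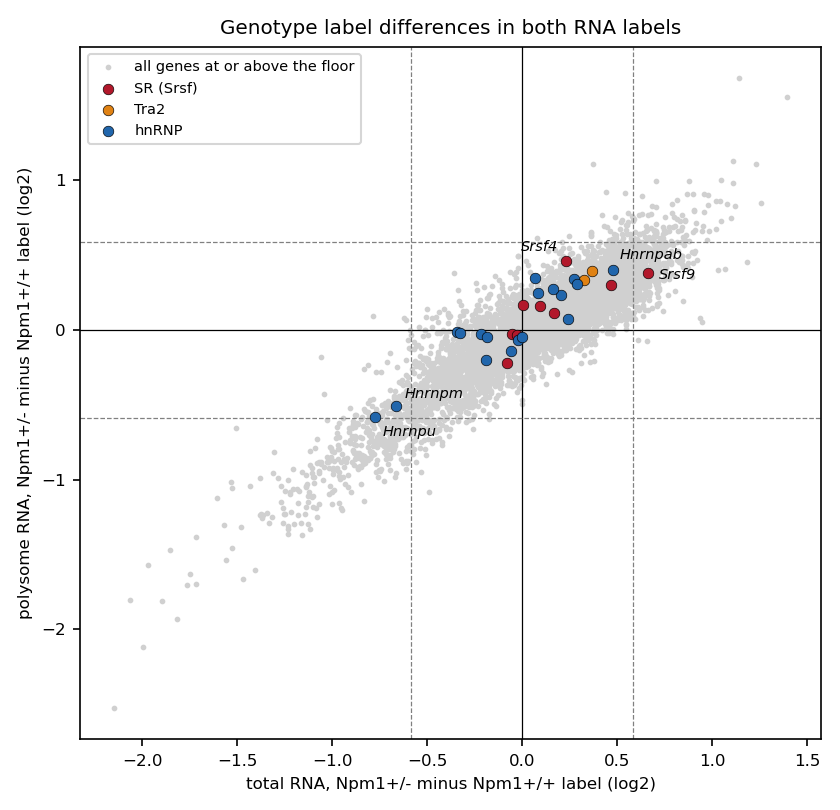
Difference in log2 intensity between genotype labels, heterozygote minus wild type, in total RNA (horizontal axis) and polysome RNA (vertical axis), with the 29 genes drawn over the 7179 genes at or above the floor. The 29 points follow the cloud of all genes, with Hnrnpu and Hnrnpm at the low end and Srsf9 at the high end.

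Probe sets of one gene did not always read alike, which matters for families whose transcripts are spliced and ended in several ways. Of the 19 genes with several probe sets at or above the floor, 10 had differences of both signs between genotype labels in each fraction. In 4 of them, Hnrnpa2b1, Hnrnpab, Srsf1 and Srsf10, probe sets of opposite sign were 1.5-fold or more apart, in both fractions. Counted by probe set, 5 of 76 were higher by 1.5-fold in total RNA, against 8.03% of 11203 probe sets, and 7 of 76 were lower, against 7.7%. In polysome RNA 2 of 76 were higher, against 2.74%, and 3 of 76 were lower, against 7.35%.

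Hnrnpab had 6 probe sets at or above the floor, of which 5 were higher in heterozygote-labelled total RNA. The exception, 1426114_at, read 11.67 in the heterozygote and 12.38 in the wild-type total RNA library, and 12.12 and 12.42 in the polysome libraries with the same labels. The dimmest of the 6, 1431349_at, differed in the other direction, with 7.54 in heterozygote and 6.67 in wild-type total RNA, and it reached the floor on that heterozygote array alone. Without it the other 4 higher probe sets differed by values between 0.29 and 0.48. For Srsf1, 5 of 6 probe sets were higher in heterozygote-labelled total RNA. The exception, 1452430_s_at, read 10.43 in the heterozygote and 10.91 in the wild-type library, while 1428100_at read 8.25 in heterozygote and 7.50 in wild type.

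For Srsf10 the summary probe set was the one that stood apart. Probe set 1449121_at read 8.31 in the heterozygote and 7.25 in the wild-type total RNA library, a difference of 1.06, and 8.56 and 7.85 in the polysome libraries with the same labels. The remaining 2 differed by 0.31 and 0.33 in total RNA, so the sign of Srsf10 depends on the probe set. For Hnrnpa2b1, probe set 1433830_at read 8.34 in heterozygote and 9.02 in wild-type total RNA, and 8.43 in heterozygote and 9.13 in wild-type polysome RNA. Its 3 brighter probe sets differed by values between -0.02 and 0.21 in total RNA. Hnrnpdl showed a spread without a change of sign: 1424252_at read 8.41 in heterozygote and 9.47 in wild-type total RNA, a difference of -1.06, while its other 4 probe sets at or above the floor lay between -0.39 and -0.02. For Srsf3, 1416151_at read 8.30 in heterozygote and 7.36 in wild-type total RNA, while 1438215_at, below the floor, differed by -0.24. Whether these probe sets read different transcript forms was not tested.

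None of these genes passed 1.5-fold between polysome and total RNA, and few of all genes did. Under the heterozygote label, 0 of the 29 were higher and 0 lower in polysome RNA by 1.5-fold, against 2.24% and 1.35% of all genes. Under the wild-type label the counts were also 0 and 0, against 3.65% and 1.56% of all genes. The median difference, polysome minus total, was 0.11 under the heterozygote label and 0.07 under the wild-type label, while the median of all genes was 0.07 under the heterozygote and 0.14 under the wild-type label. So 20 of the 29 genes lay above the median gene under the heterozygote label and 9 under the wild-type label.

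Hnrnpl had the largest positive difference of the hnRNP genes under both labels, 0.42 under the heterozygote label (10.66 in polysome and 10.24 in total RNA) and 0.35 under the wild-type label (10.31 in polysome and 9.96 in total RNA). Hnrnpu came next under the heterozygote label, at 0.39, and Hnrnph3 under the wild-type label, at 0.31. Hnrnpr had the lowest value under both labels, -0.10 under the heterozygote label (10.40 in polysome and 10.50 in total RNA) and -0.41 under the wild-type label (10.42 in polysome and 10.83 in total RNA). Hnrnph2 followed, at 0.01 under the heterozygote and -0.13 under the wild-type label. Among the SR and Tra2 genes, Tra2a was lower in polysome RNA under both labels, by -0.16 and -0.17. Srsf10 was at -0.20 under the heterozygote label and Srsf3 at -0.16 under the wild-type label, both at their summary probe sets. The other probe sets of Srsf10 were at 0.16, -0.06 and 0.25 under the heterozygote label. The other 5 of Srsf3 were above 0 under the wild-type label, from 0.07 to 0.79. Srsf9 had the largest SR value under the wild-type label, 0.36, and Srsf4 under the heterozygote label, 0.21. Over the settings the difference took both signs for 14 genes under each label, so their directions are not settled. Under both labels these included Hnrnpa2b1, Hnrnpab, Hnrnpdl, Hnrnph1, Srsf1, Srsf2, Srsf3, Srsf10, Srsf11 and Tra2b. Under the heterozygote label alone they were Hnrnph2, Hnrnpm, Hnrnpul1 and Srsf9. Under the wild-type label alone they were Hnrnpa1, Hnrnpc, Hnrnpf and Hnrnpul2.

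Across the 29 genes, the differences between fractions under both labels had the same sign for 19 genes, with a Pearson correlation of 0.573 and a Spearman correlation of 0.475. Over all 7179 genes the sign was the same for 5430, and the correlations were 0.805 and 0.682, over a wider range of differences. The spread between probe sets, taken from the brightest pair of each gene, exceeded most of these differences. Its SD over the 19 genes was 0.25 under the heterozygote and 0.34 under the wild-type label, and 27 of the 29 differences under the heterozygote and 26 under the wild-type label were smaller in size than that. Probe sets of opposite sign were 1.5-fold or more apart in 2 of the 19 genes under the heterozygote label (Hnrnpab and Hnrnph1) and in 5 under the wild-type label (Hnrnpf, Hnrnph1, Hnrnpr, Srsf3 and Srsf10). For Hnrnph1, for example, the summary probe set was at 0.10 under the heterozygote and 0.11 under the wild-type label, and 1437267_x_at at -0.59 and -0.88. For Hnrnpf, the wild-type-label difference was -0.70 at 1437099_x_at and 0.47 at 1450963_at.

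Part of the markers of macrophages, an immune cell type, differed between the fraction labels. Of 14 macrophage markers on the array, 6 were higher in polysome RNA by 2-fold or more under each genotype label, against 0.412% of the 12393 named genes under the heterozygote and 0.476% under the wild-type label, with no floor applied. They were C1qa, C1qb, C1qc, Ctss, Fcer1g and Lyz2, and the first 5 of them read below the floor in both total RNA libraries. The other markers differed less: 3 of the 14 were lower in polysome RNA under the heterozygote label and 1 under the wild-type label. Among these, Ptprc was at -0.32 under the heterozygote and -0.21 under the wild-type label, Csf1r at -0.22 and 0.05, and Cd14 at -0.03 and 0.34. The 14 levels ran from 4.55 to 10.46 in heterozygote polysome RNA, from 4.53 to 9.82 in wild-type polysome RNA, from 4.87 to 8.20 in heterozygote total RNA and from 4.73 to 7.76 in wild-type total RNA. Their medians in the same libraries were 7.65, 7.59, 6.59 and 6.41. Between genotype labels, 2 of the 14 markers were higher in heterozygote-labelled total RNA by 1.5-fold. The share of all 12393 named genes, with no floor applied, was 4.63%. In polysome RNA 3 of the 14 were higher, against 1.32%. Lyz2 read 8.20 in heterozygote and 7.59 in wild-type total RNA, and 10.46 in heterozygote and 9.82 in wild-type polysome RNA. C1qc, the other in total RNA, reached the floor on the heterozygote polysome array alone, at 7.57, and C1qb was the third in polysome RNA. Of 7 endothelial markers, 1 reached the floor on an array. Of the 12 fibroblast markers, 10 were higher and 2 lower in polysome RNA under each label. Most genes were higher too: of the 7179 genes, 4673 under the heterozygote and 5424 under the wild-type label. Dcn was higher by 1.16 under the heterozygote and 1.37 under the wild-type label, and Fap by 0.85 and 1.09. The epithelial marker Cldn4, below the floor on every array, was at -1.14 and -0.44. The part of these markers in the differences of the 29 genes was not tested.

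**Figure D4:**
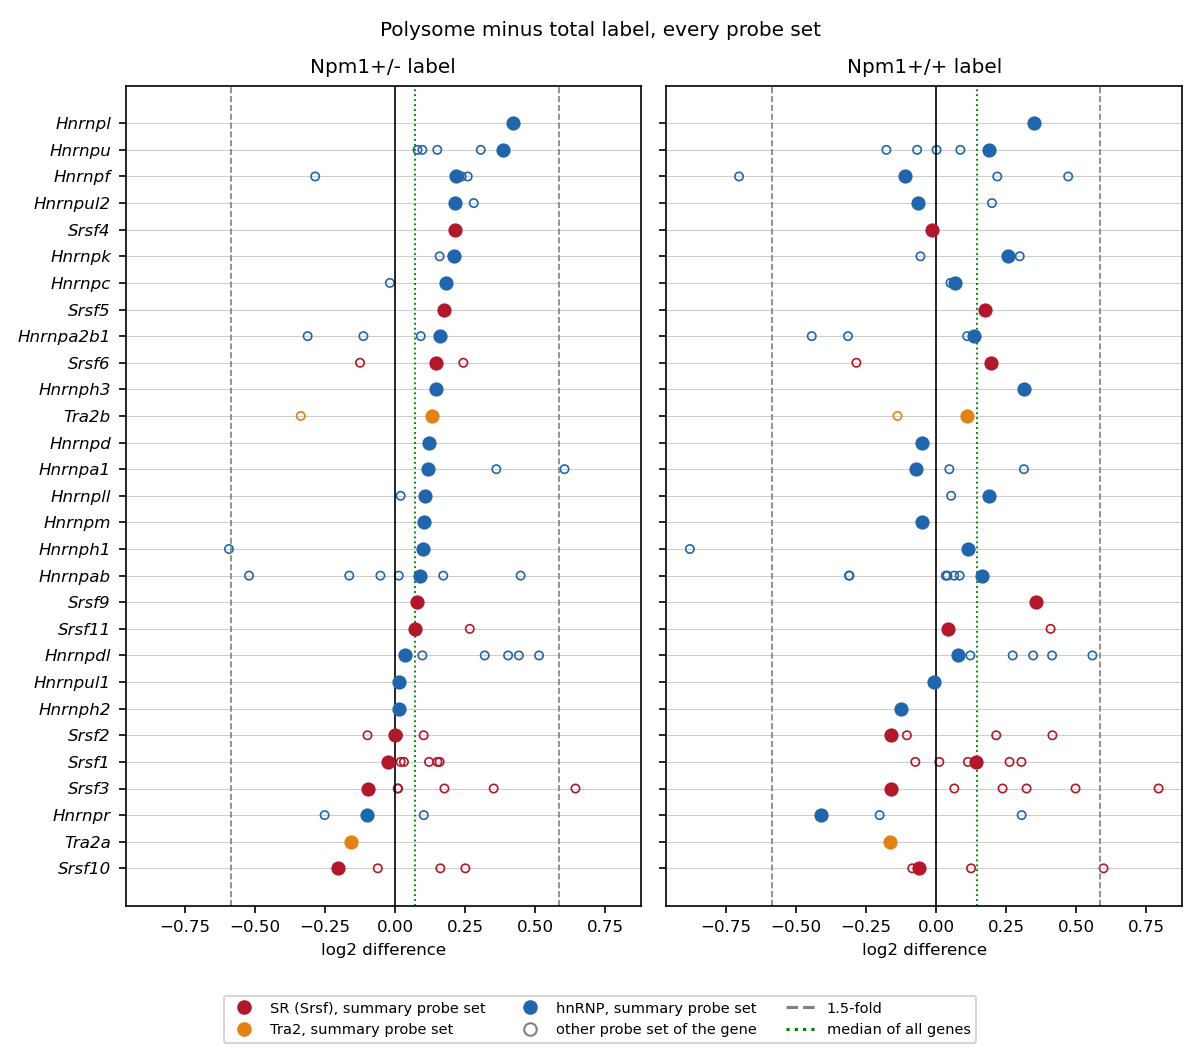
Difference in log2 intensity, polysome minus total RNA (horizontal axis), for the 29 genes (rows) under the heterozygote and wild-type labels, with filled points for summary probe sets, open points for the others and lines for the median gene and the 1.5-fold limits. All 29 filled points lie within the limits under both labels, from -0.41 (Hnrnpr, wild-type label) to 0.42 (Hnrnpl, heterozygote label).

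The association difference, which is the polysome minus total difference under the heterozygote label minus that under the wild-type label, asks whether a gene's share on ribosomes differs between the labels. It passed 1.5-fold in 0 of the 29 genes in either direction, against 0.167% of all genes higher and 0.139% lower. The median of the 29 was 0.03 and that of all genes -0.07, and 23 of the 29 lay above the median gene, among them 15 of the 18 hnRNP genes. The largest values were those of Hnrnpf, 0.33, and Hnrnpr, 0.31. For Hnrnpf, polysome minus total was 0.22 under the heterozygote and -0.11 under the wild-type label, and for Hnrnpr -0.10 and -0.41. The lowest was that of Srsf9, -0.28, whose difference between fractions was 0.08 under the heterozygote and 0.36 under the wild-type label. Srsf1 followed at -0.17, as did Hnrnph3 at -0.17, while Srsf4 and Srsf2 had the largest SR values, 0.23 and 0.16. The 6 probe sets of Srsf1, 3 above 0 and 3 below, lay between -0.24 and 0.15. The other probe sets of Srsf2 were at -0.21, -0.31 and 0.01. Between the brightest pair of probe sets of a gene the SD was 0.21 over the 19 genes. Probe sets of opposite sign were 1.5-fold or more apart in 3 (Hnrnpab, Hnrnpf and Srsf3). Hnrnpf and Hnrnpr moved to 0.04 and -0.05 without probe sets ending in _x_at or _s_at. Over the settings the association difference took both signs for 12 of the 29 genes, so their directions are not settled. These were Hnrnpab, Hnrnpdl, Hnrnph1, Hnrnpk, Hnrnpll, Hnrnpr, Srsf2, Srsf3, Srsf5, Srsf6, Srsf11 and Tra2b.

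Genes that act with these families were read from lists that were chosen with earlier results of these data known. The core spliceosome proteins carried the most calls. In heterozygote-labelled total RNA, 9 of 29 at or above the floor were lower by 1.5-fold, against 6.23% of all genes, and 1 was higher, against 7.42%. In polysome RNA 9 were lower, against 5.86% of all genes, and 0 higher, against 2.08%. The 7 that were lower in both fractions were Prpf8, Sf3b1, Sf3b2, Sf3b3, Prpf6, Eftud2 and Dhx8. The median difference was -0.24 in total and -0.07 in polysome RNA. Prpf8, the scaffold of the spliceosome's catalytic centre, read 8.84 in heterozygote and 10.22 in wild-type total RNA, and 9.14 in heterozygote and 10.38 in wild-type polysome RNA, at 1 probe set. Sf3b1, the U2 snRNP subunit that holds the branch site, read 10.03 in heterozygote and 11.09 in wild-type total RNA, and 10.39 in heterozygote and 11.27 in wild-type polysome RNA. Prpf6, a bridge within the tri-snRNP, read 9.13 and 9.98 in heterozygote and wild-type total RNA, and 9.13 and 10.04 in polysome RNA. Snrpa1, the U2 A′ protein, was the one that was higher, with 10.38 in heterozygote and 9.56 in wild-type total RNA.

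Among the enzymes that phosphorylate or dephosphorylate SR proteins, the counts were near those of all genes. Of 11 kinases and phosphatases at or above the floor, 1 was higher by 1.5-fold in total RNA, against 7.42% of all genes, and 0 were lower, against 6.23%. In polysome RNA 0 were higher, against 2.08%, and 0 lower, against 5.86%. The medians were 0.09 in total and 0.04 in polysome RNA. The one higher in total RNA was Ppp1ca, a catalytic subunit of protein phosphatase 1, with 12.74 in heterozygote and 12.09 in wild type. Its paralog Ppp1cc read 12.46 in heterozygote and 12.03 in wild-type total RNA. The kinase Prpf4b had the most negative differences, with 7.91 in heterozygote and 8.41 in wild-type total RNA, and 8.36 in heterozygote and 8.90 in wild-type polysome RNA.

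Among 19 SR-related and exon junction proteins, 1 was lower by 1.5-fold in total and polysome RNA, against 6.23% and 5.86% of all genes. In both fractions 0 were higher, against 7.42% and 2.08%, and the medians were -0.07 and -0.05. The lower one was Pnn (pinin), a speckle protein that joins splicing to the exon junction complex. It read 7.56 in heterozygote and 8.49 in wild-type total RNA, and 7.80 in heterozygote and 8.82 in wild-type polysome RNA. Its other probe sets differed by -1.61 and -0.91 in total RNA, and the lower of them by -1.74 in polysome RNA. U2af1, the small subunit of the factor that reads the 3′ splice site, differed by 0.49 in total RNA, and Luc7l2, a U1 snRNP-associated protein, by 0.51 in polysome RNA at its summary probe set. The other 4 probe sets of Luc7l2 were higher in both heterozygote-labelled libraries too, with differences between 0.23 and 1.51 in total RNA and between 0.36 and 1.98 in polysome RNA.

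Of 26 other RNA-binding proteins of the hnRNP kind, 2 were higher and 1 lower by 1.5-fold in total RNA, against 7.42% and 6.23% of all genes. In polysome RNA 1 was higher and 0 lower, against 2.08% and 5.86% of all genes, and the medians were 0.12 in total and 0.06 in polysome RNA. Rbfox2, a splicing regulator that binds UGCAUG, read 10.28 in heterozygote and 9.05 in wild-type total RNA, and 10.41 in heterozygote and 9.30 in wild-type polysome RNA at its summary probe set. Its other 3 probe sets differed by -0.24, -0.06 and -0.04 in total RNA, so the gene's direction depends on the probe set. Matr3 (matrin 3) read 10.54 in heterozygote and 11.22 in wild-type total RNA, and its 3 probe sets lay between -0.68 and -0.63. Ptbp3, a polypyrimidine tract binding protein, differed by 0.61 in total and 0.53 in polysome RNA, and Fubp1 by -0.54 in polysome RNA.

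Of 10 nuclear import and RNA export genes, 1 was lower by 1.5-fold in total RNA, against 6.23% of all genes, and none in polysome RNA, against 5.86%, with medians of -0.06 and -0.10. Thoc2, a subunit of the THO complex that couples transcription to export, read 8.07 in heterozygote and 8.76 in wild-type total RNA. Thoc1 of the same complex differed by -0.37 in total and -0.40 in polysome RNA, and Sarnp, which joins the same export pathway, by 0.54 and 0.25. Of 5 nonsense-mediated decay genes on the array 2 reached the floor. Upf2 read 8.34 in heterozygote and 8.56 in wild-type total RNA, and Smg5 read 8.72 in heterozygote and 8.49 in wild-type total RNA.

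**Figure D5:**
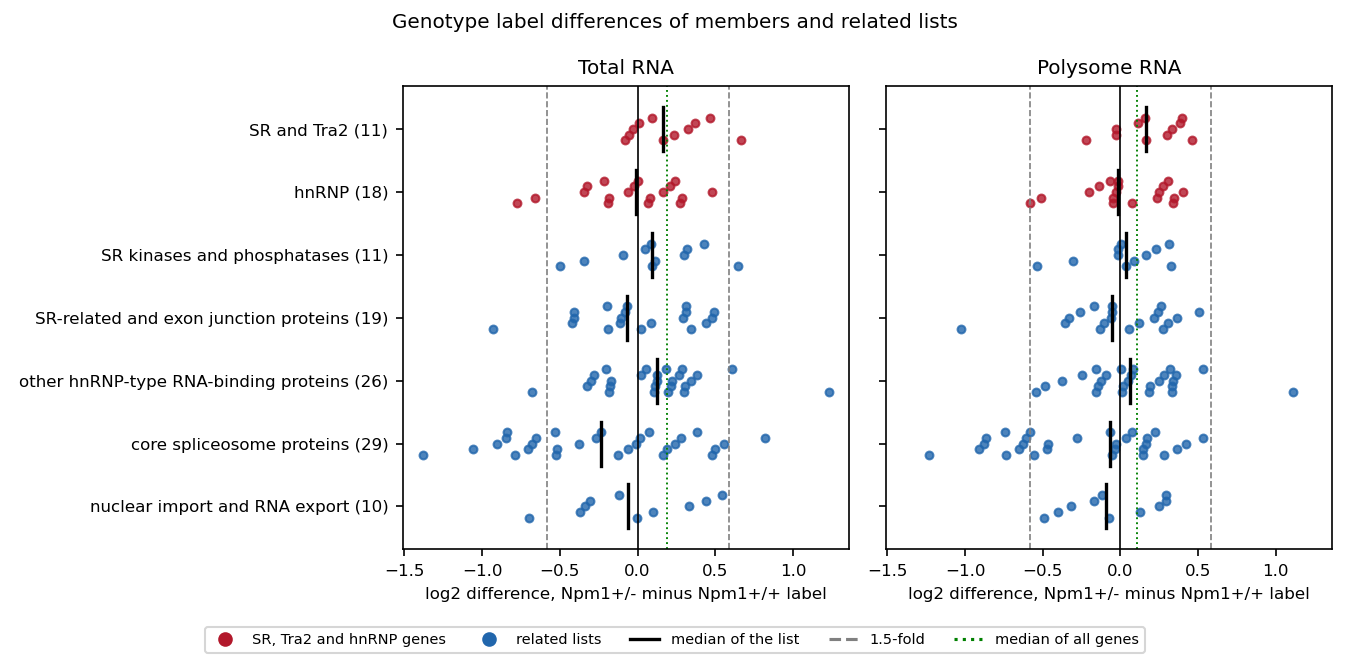
Difference in log2 intensity between genotype labels, heterozygote minus wild type (horizontal axis), in polysome and total RNA, for the SR and Tra2 genes, the hnRNP genes and each list of related genes at or above the floor, with 1 point per gene and a mark at each median. The core spliceosome points extend furthest to the left, to -1.38 for Prpf8, and all SR, Tra2 and hnRNP points lie between -0.78 and 0.66.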

How the data were processed

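RNA of mouse embryonic fibroblasts was measured on 4 Affymetrix arrays, 1 per group, with groups taken from the labels. The authors deposited log2 intensities, 1 per probe set and array, made with R 3.4.3, affy 1.56.0 and RMA, per the submitters' processing notes. RMA corrects background, normalises between arrays and summarises probes on the log2 scale. The settings and the genome build are not given in the sources used here. No detection calls were used, and the number of arrays limits precision. Of the 22690 probe sets, 20380 had 1 symbol in the platform annotation after 13 manufacturer controls were left out, and 20351 of these matched RefSeq (GRCm38.p6), which changed 0 symbols.

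Each gene took its probe set with the highest mean. The floor was 7.53, reached on at least 1 array by 7179 genes. Differences of log2 values were computed for 5 comparisons with Python 3.11.15 and pandas 2.3.3, and genes were counted at 1.5-fold and 2-fold, with no test. The calculation was tested on simulated data. The members and all lists were chosen with earlier results of these data known. Named members were those past 1.5-fold, the 2 largest and 2 smallest of the SR and Tra2 genes and of the hnRNP genes in each comparison, and those whose probe sets disagreed in sign by 1.5-fold or more. Further members are given to cover each role. From the related lists, the rule took the 2 largest absolute differences in each genotype comparison and all genes past 2-fold. Snrpa1, Ppp1cc and Ptbp3 were added where they passed 1.5-fold or had a paralog named. The lists were SR kinases and phosphatases, SR-related and exon junction proteins, other hnRNP-type proteins, core spliceosome, import and export, nonsense-mediated decay, and markers of fibroblasts, macrophages, epithelium and endothelium.

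The alternatives were the mean of a gene's probe sets, a floor at 9.33, none, or one on the mean, leaving out probe sets ending in _x_at or _s_at, array centring, quantile normalisation, subtraction of a loess trend (span 0.3) and, chosen after seeing the data, centring on the median gene.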

Additional observations from a re-analysis of the deposited data

How the results depend on the processing

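The counts of the 29 genes past 1.5-fold changed only with scaling. In total RNA, 1 gene was higher as reported, and 0 were under quantile normalisation, under subtraction of a loess trend and under centring on the median gene. In polysome RNA, 0 genes were lower as reported, 1 was under quantile normalisation, and 2 were under subtraction of a loess trend and under centring on the median gene, an alternative chosen after seeing the data. The median gene, at 0.19 in total and 0.11 in polysome RNA as reported, lay at 0.10 and 0.09 under quantile normalisation, at 0.03 and 0.01 under the loess subtraction, and at 0 under the centring. Of 135 counts and medians over the alternatives, 129 stayed within the limits set for them and 6, given above, did not; 0 changed sign at 1.5-fold or more. Of 1300 values of single genes, 17 moved by more than the spread between probe sets, all of them when a gene's probe sets were averaged or those ending in _x_at or _s_at were left out. In total RNA, Hnrnpu and Hnrnpm were lower by 1.5-fold or more under every alternative, with values of -0.66 or below. The floor at 9.33 left out Hnrnph3. No paired analysis was possible because each group has 1 array and the labels carry no replicate number. With 1 array per group, differences between cultures, gradients and arrays cannot be told apart from those between labels.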
